A study of Homo sapiens with 2 samples.

Results

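The molecular chaperones described here were the heat shock protein families HSP70, HSP90, HSP110, HSP60/HSP10 and small HSPs, the J-domain proteins (DNAJA, DNAJB, DNAJC) and the subunits of the cytosolic chaperonin CCT, profiled in HCT116, a cell line established from a human colorectal carcinoma. Members were the protein-coding genes whose platform symbol began HSPA, HSPB, HSPD, HSPE, HSPH, DNAJA, DNAJB or DNAJC followed by a number, or HSP90, or was CCT2 to CCT8, and which had a probe set annotated to that gene alone. This gave 75 genes with 178 probe sets among the 19775 genes on the array. Total RNA came from cells given siRNAs against JMJD1A and JMJD1B together (the demethylase genes now called KDM3A and KDM3B) and from cells given a control siRNA, both 2 days after transfection. Each condition was 1 array, so no value below has a replicate error, no difference was tested, and a difference is one between these hybridizations. Both siRNAs were given together, so their effects cannot be told apart. In whole-culture RNA, fewer cells with a transcript and less transcript per cell cannot be told apart either.

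Chaperones bind unfolded proteins and keep them from aggregating. HSP70 proteins cycle on and off their clients with ATP. J-proteins deliver clients and trigger hydrolysis, and HSP110 proteins release the ADP. HSP90 proteins act later on partly folded clients such as kinases, while the chaperonins CCT and HSP60 enclose whole proteins in a barrel. Each compartment has its own set. The cytosolic set is induced by heat shock factor 1, and the ER set by the unfolded protein response, through XBP1 and ATF6. Many cancer lines keep the cytosolic set at high levels.

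Values are linear signal intensities in the scaling the authors deposited. A gene is represented by its brightest probe set and counted as measured if the geometric mean of its signals on both arrays was at least 50.4, the middle value over all probe sets but the controls. Log2 ratios are JMJD1A/JMJD1B siRNA minus control siRNA. Probe sets of the same gene scattered with an SD of 0.54 on this log2 scale over 6192 genes, which is the only measure of scatter the arrays allow. It holds no error between cultures or arrays, so a ratio within it is not shown to be unchanged. The brightest KDM3B probe set read 496 on the JMJD1A/JMJD1B siRNA array and 3031 on the control array, and that of KDM3A 3323 with JMJD1A/JMJD1B siRNA and 3884 with control siRNA. Of 8 intestinal epithelial markers 7 were measured. The fibroblast list had 2 of 6 measured, the leukocyte list 1 of 5 and the endothelial list 1 of 4. Of the 5 leukocyte markers only 3 had a probe set annotated to 1 gene, and the leukocyte sum covers those. Summed signals were 82854 with JMJD1A/JMJD1B siRNA and 62834 with control siRNA for the epithelial list, 805 with JMJD1A/JMJD1B siRNA and 514 with control siRNA for the fibroblast list, 86.9 with JMJD1A/JMJD1B siRNA and 59.1 with control siRNA for the leukocyte list and 231 with JMJD1A/JMJD1B siRNA and 152 with control siRNA for the endothelial list. No marker with a probe set was at 0, and their part in the results was not tested. The 18 hybridization control probe sets, which report spiked-in transcripts, had a median log2 ratio of 0.61, so on their scale every log2 ratio below would be lower by that amount.

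Of the 75 chaperone genes 64 were measured. On the JMJD1A/JMJD1B siRNA array 3 of these (4.69%) were higher by 2-fold or more, against 8.91% of all 12561 measured genes, and 6 (9.38%) were lower by 2-fold or more, against 8.53%. With the loess trend of ratio on signal removed, the counts were again 3 and 6, against 8.91% and 8.22% of all genes, and 4 of the 6 lower genes were shared. With this choice of probe sets the share of lower members was close to the background and that of higher members below it. Without probe sets marked _x_at or _s_at, which can match several transcripts, the lower share was 17.3% against 10.6% of all genes. The members that joined the lower genes there (HSPA4, HSPA9, HSPD1, CCT8 and DNAJA1) did so by dimmer probe sets. That of CCT8 read 36.8 with JMJD1A/JMJD1B siRNA and 77.7 with control siRNA, and that of HSPD1 247 with JMJD1A/JMJD1B siRNA and 595 with control siRNA. Members were brighter than all measured genes, at a median mean log2 signal of 11.2 against 9.42. With the loess trend removed, their median log2 ratio was -0.26, against 0.03 over all measured genes, with 44 members below 0. On the deposited scale the median was -0.11, against 0.04. There 37 members (57.8%, against 47.9% of all genes) were below 0 and 27 above. All 3 higher members were J-proteins of the endoplasmic reticulum (ER). The 6 lower members were the HSP110 gene HSPH1 and 5 J-protein genes, in the cytosol or nucleus (DNAJC2, DNAJA4), the ER (DNAJC16) and mitochondria (DNAJC11, DNAJC30). Just past the 2-fold line lay DNAJC16 at -1.002, DNAJC30 at -1.06 and DNAJC11 at -1.06. Just short of it were HSPA12B at -0.93 and DNAJA1 at -0.90 on the lower side, and DNAJC27 at 0.88, DNAJC21 at 0.86 and DNAJC28 at 0.84 on the higher side. By their brightest single-gene probe sets no measured HSP70, HSP90, HSP60 or CCT gene reached 2-fold in either direction on the deposited scale. Outside this count lie 2 bright probe sets that each list several HSP70 genes and no other gene, at log2 ratios of -2.47 and -1.76, so HSP70 transcripts of the cytosol are covered only in part. On the scale of the hybridization controls no member would reach 2-fold upward, against 2.15% of all genes, and 23 would downward, against 27.7%.

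**Figure D1:**
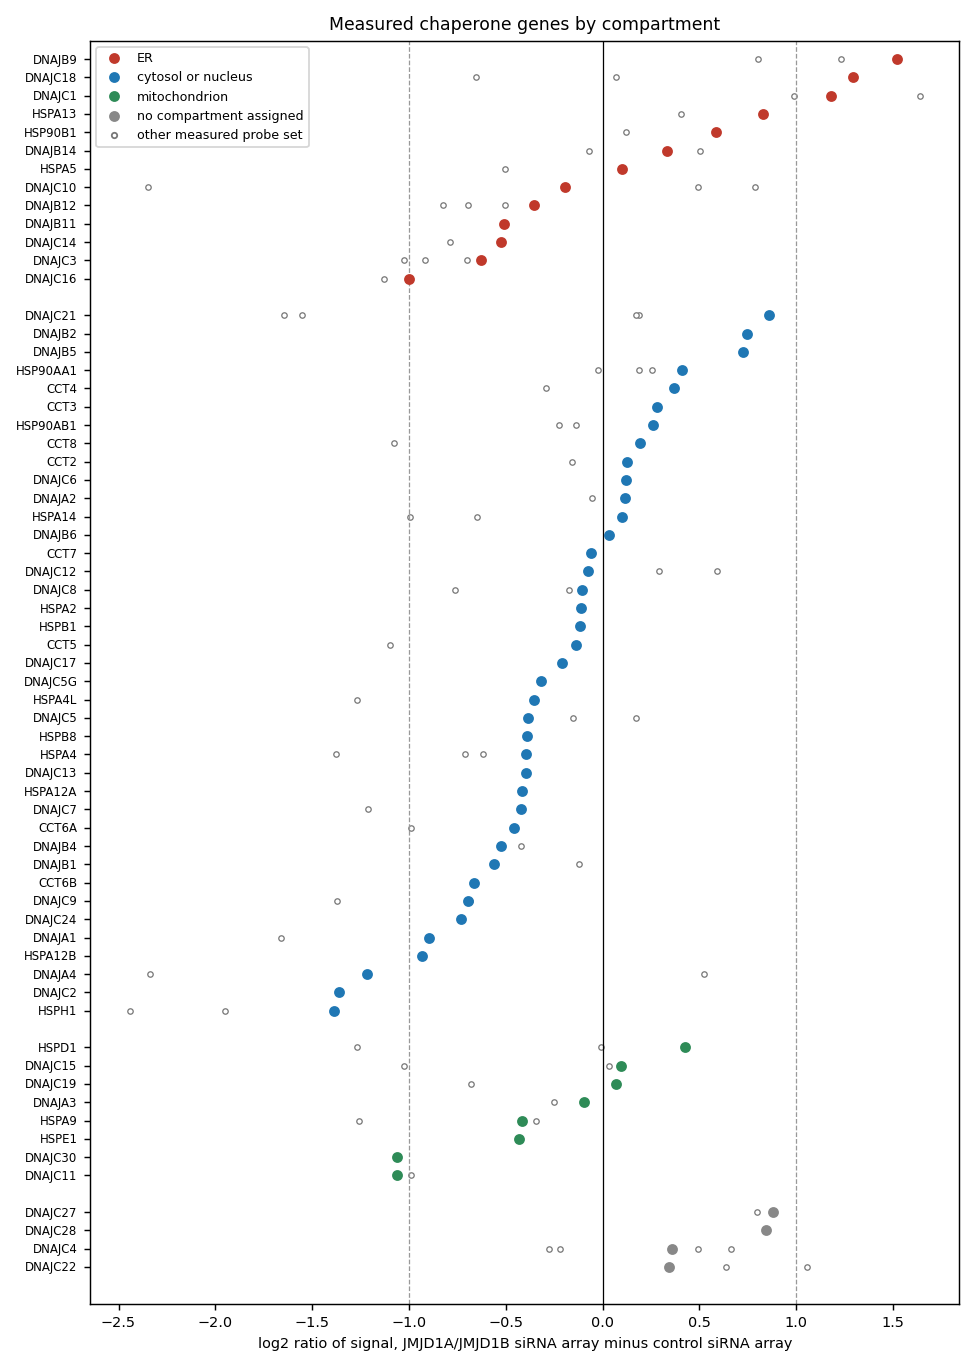
Log2 ratio of signal, JMJD1A/JMJD1B siRNA array minus control siRNA array (x axis), for the 64 measured chaperone genes (rows), grouped by compartment. Filled points are the brightest probe set of each gene, open points its other measured probe sets, and dashed lines mark 2-fold; the filled ER points reach from -1.002 to 1.52, and the filled points past the right-hand line are DNAJB9, DNAJC18 and DNAJC1.

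The 3 HSP110 genes, whose proteins act as nucleotide exchange factors of HSP70, were each below 0. HSPH1, also known as HSP105 and a partner in protein disaggregation, read 5691 on the JMJD1A/JMJD1B siRNA array and 14889 on the control array, 2.62-fold lower. Its other probe sets read 1305 with JMJD1A/JMJD1B siRNA and 5035 with control siRNA (log2 ratio -1.95), and 140 with JMJD1A/JMJD1B siRNA and 764 with control siRNA (-2.44), so the brightest gave the smallest difference. HSPA4, known as APG-2, read 5552 with JMJD1A/JMJD1B siRNA and 7292 with control siRNA by its brightest probe set, a log2 ratio of -0.39, with 4 probe sets between -1.38 and -0.39. HSPA4L, known as APG-1, read 1066 with JMJD1A/JMJD1B siRNA and 1364 with control siRNA (-0.36), with a second probe set at -1.27. Every measured probe set of these 3 genes was below 0.

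The other measured HSP70 genes of the cytosol lay between -0.93 and 0.10. The inducible HSPA1A and HSPA1B and the constitutive HSPA8 had no probe set with a single gene symbol and were not analysed here as genes. HSPA14, a ribosome-associated HSP70, read 3125 on the JMJD1A/JMJD1B siRNA array and 2912 on the control array (log2 ratio 0.10), while its other probe sets stood at -0.65 and -0.99. HSPA2, known for its role in the testis, read 176 with JMJD1A/JMJD1B siRNA and 190.5 with control siRNA (-0.11). The atypical HSPA12B read 37.3 with JMJD1A/JMJD1B siRNA and 71.2 with control siRNA (-0.93), with the JMJD1A/JMJD1B siRNA signal under the filter, so that it was at least 1.41-fold lower against the filter. HSPA6, an HSP70 that is nearly silent without heat stress, was not measured, with 51.9 with JMJD1A/JMJD1B siRNA and 25.3 with control siRNA.

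J-proteins of the cytosol and nucleus were mostly lower, with 14 of 20 measured genes (70%) below 0, against 47.9% of all measured genes, and a median log2 ratio of -0.35, against 0.04. Of these 20, 2 (10%) were lower by 2-fold or more, close to the 8.53% of all genes, and none was higher by as much. DNAJC2, a ribosome-associated J-protein that helps nascent chains to fold, read 2383 on the JMJD1A/JMJD1B siRNA array and 6113 on the control array, 2.57-fold lower. DNAJA4 read 1018 with JMJD1A/JMJD1B siRNA and 2366 with control siRNA, 2.32-fold lower. Its probe sets did not share a direction, with 3 between -2.34 and -1.22 and another, at signals of 254 with JMJD1A/JMJD1B siRNA and 177 with control siRNA, at 0.52. DNAJA1, known as HDJ2 and a main partner of constitutive HSP70, was bright on both arrays, at 8915 with JMJD1A/JMJD1B siRNA and 16618 with control siRNA. It was 1.86-fold lower by that probe set and stood at -1.66 by the other, so its call at 2-fold depends on the probe set. DNAJB1, the main heat-inducible HSP40, read 3875 with JMJD1A/JMJD1B siRNA and 5714 with control siRNA (-0.56), with its second probe set at -0.12. The histone chaperone DNAJC9 read 3776 with JMJD1A/JMJD1B siRNA and 6123 with control siRNA (-0.70, 3 probe sets between -1.37 and -0.69). DNAJC7, which binds both HSP70 and HSP90, read 3221 with JMJD1A/JMJD1B siRNA and 4310 with control siRNA (-0.42), and DNAJC24, which takes part in diphthamide synthesis, 813 with JMJD1A/JMJD1B siRNA and 1350 with control siRNA (-0.73). DNAJA2, another partner of constitutive HSP70, was close to level at 5269 with JMJD1A/JMJD1B siRNA and 4858 with control siRNA (0.12).

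Members above 0 in this group were led by DNAJC21, a factor of ribosome maturation, at 3139 on the JMJD1A/JMJD1B siRNA array and 1730 on the control array (log2 ratio 0.86). Its 5 measured probe sets ran between -1.65 and 0.86, and their mean was -0.40, so its direction depended on the probe set. DNAJB2, which directs clients to the proteasome, read 479 with JMJD1A/JMJD1B siRNA and 286 with control siRNA (0.75), and DNAJB5 253 with JMJD1A/JMJD1B siRNA and 153 with control siRNA (0.72), each by a single measured probe set. DNAJB6, a suppressor of polyglutamine aggregation, stood at 0.03.

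Stretches upstream of the start sites of 4 heat-shock genes are shown because they hold, or lack, the paired units bound by heat shock factors, searched as GAANNTTC and TTCNNGAA on both strands, with overlaps allowed. They are RefSeq sequence of GRCh38.p14, read 5′ to 3′ on the gene's strand and ending at the base before the start site, with matches in capitals.
HSPH1 (chr13:31162389-31162538, minus strand): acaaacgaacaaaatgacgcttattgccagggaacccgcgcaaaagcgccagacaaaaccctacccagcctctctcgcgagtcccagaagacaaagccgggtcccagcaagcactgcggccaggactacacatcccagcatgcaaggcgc
DNAJA4 (chr15:78264442-78264561, plus strand): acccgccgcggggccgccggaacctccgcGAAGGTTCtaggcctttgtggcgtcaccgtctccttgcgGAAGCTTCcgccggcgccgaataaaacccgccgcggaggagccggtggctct
DNAJB1 (chr19:14518398-14518517, minus strand): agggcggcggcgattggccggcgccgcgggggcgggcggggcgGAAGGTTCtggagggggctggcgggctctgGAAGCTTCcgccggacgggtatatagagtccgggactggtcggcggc
HSP90AA1 (chr14:102087045-102087164, minus strand): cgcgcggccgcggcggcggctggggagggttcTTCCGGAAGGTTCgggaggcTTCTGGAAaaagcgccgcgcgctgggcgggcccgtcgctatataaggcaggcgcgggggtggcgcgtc
DNAJA4 and DNAJB1 each hold 2 matches and HSP90AA1 holds 3, of which 2 overlap, while the HSPH1 stretch holds none. Among 58 measured members with a promoter in the table, at 79 start sites and within 250 bases before and 50 from the start, 18 promoters (22.8%) held a match, against 13.5% of all 35116 promoters. The 17 genes with a match had a median log2 ratio of -0.11, between -1.22 and 0.42, and the 41 without had one of -0.11. A run of 3 alternating units was rarer, in 6.33% of the members' promoters against 0.49% of all promoters. It lay in 5 genes (DNAJA1, DNAJB6, HSP90AA1, HSP90AB1 and HSPD1). Their median log2 ratio was 0.26, between -0.90 and 0.42, against -0.14 for the 53 genes without the run. With the loess trend removed, only DNAJB6 of these 5 stood above 0, at 0.10, and DNAJA1 was the lowest, at -1.16.

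Cytosolic HSP90 genes were among the brightest members and stood slightly above 0 on the deposited scale, but below 0 with the loess trend removed or on the hybridization control scale. HSP90AA1, the inducible cytosolic form, read 45394 on the JMJD1A/JMJD1B siRNA array and 34115 on the control array (log2 ratio 0.41), with 4 probe sets between -0.02 and 0.41. HSP90AB1, the constitutive form, read 31675 with JMJD1A/JMJD1B siRNA and 26462 with control siRNA (0.26), with 3 probe sets between -0.22 and 0.26. Bright genes as a class stood above 0 on these arrays. The 742 genes with a mean log2 signal of at least 13 had a median of 0.36, and with the loess trend on signal removed HSP90AA1 stood at -0.07 and HSP90AB1 at -0.16. Each difference lies within the SD of 0.54 between probe sets.

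Of 19 measured co-chaperones of HSP70 and HSP90, 15 (78.9%) were below 0, against 47.9% of all measured genes, and the median log2 ratio was -0.39, against 0.04. Past 2-fold were 3 lower genes (15.8%, against 8.53% of all genes) and no higher one (against 8.91%). BAG2, an inhibitor of the ubiquitin ligase CHIP, read 1870 on the JMJD1A/JMJD1B siRNA array and 4948 on the control array, 2.65-fold lower, but a dimmer probe set stood at 0.26. CHORDC1, an HSP90 co-chaperone, was 2.52-fold lower (3915 with JMJD1A/JMJD1B siRNA and 9864 with control siRNA) with its probe sets between -1.33 and -0.98. BAG1, an exchange factor of HSP70 and the third of these by size, was 2.28-fold lower (probe sets between -1.47 and -1.11). ST13, known as HIP, had the highest ratio at 0.51 (18693 with JMJD1A/JMJD1B siRNA and 13161 with control siRNA), and FKBP5, a glucocorticoid-induced immunophilin, followed at 0.36. The transcript of HSF1, the main heat shock factor, was level at 541 with JMJD1A/JMJD1B siRNA and 557 with control siRNA (-0.04). HSBP1, a small protein that binds HSF1, read 27567 with JMJD1A/JMJD1B siRNA and 14700.0 with control siRNA (0.91), with another probe set at -0.66.

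Small heat shock proteins were represented by 2 measured genes of 7. HSPB1, known as HSP27, read 7249 on the JMJD1A/JMJD1B siRNA array and 7848 on the control array (log2 ratio -0.11). HSPB8, the partner of BAG3 in selective autophagy, read 287.5 with JMJD1A/JMJD1B siRNA and 376 with control siRNA (-0.39). Both ratios were smaller in size than the SD of 0.54 between probe sets.

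**Figure D2:**
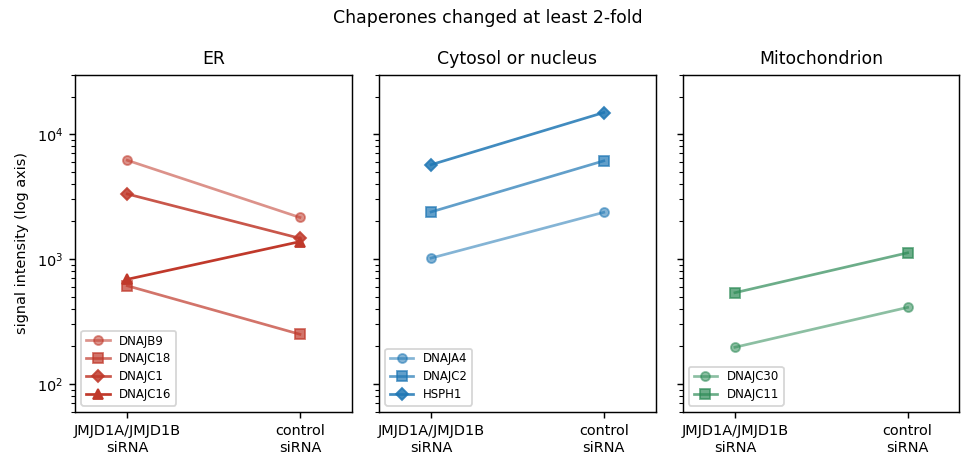
Signal intensity (log axis) of the 9 chaperone genes that differed by 2-fold or more, on the JMJD1A/JMJD1B siRNA array (left in each panel) and the control siRNA array (right), with 1 panel for each compartment. Lines join the signals of the same gene; they fall from left to right for DNAJB9, DNAJC18 and DNAJC1 and climb for the other genes.

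The 7 ubiquitous CCT subunits that the naming rule covers, which fold actin and tubulin, stayed under 2-fold by their brightest probe sets. Another subunit gene, TCP1, does not match the rule and has no value here, so the ring was not covered in full. CCT4 had the highest ratio, at 25225 on the JMJD1A/JMJD1B siRNA array and 19546 on the control array (log2 ratio 0.37), and CCT6A the lowest, at 11375 with JMJD1A/JMJD1B siRNA and 15621 with control siRNA (-0.46). Between them stood CCT3 at 0.28, CCT8 at 0.19, CCT2 at 0.12, CCT7 at -0.06 and CCT5 at -0.14, and the median was 0.12. Lower than all of these was CCT6B, the zeta form known from testis, which was dim at 203 with JMJD1A/JMJD1B siRNA and 321 with control siRNA (-0.66). With the loess trend on signal removed none of these 8 CCT genes stood above 0 and the median of the 7 was -0.26. Every second probe set of a subunit had a lower ratio than the brightest. It stood at -0.16 for CCT2, -0.29 for CCT4 and -0.99 for CCT6A, which read 4841 with JMJD1A/JMJD1B siRNA and 9616 with control siRNA there. Past 2-fold were the dim second probe sets of CCT5 and CCT8, with 271 on the JMJD1A/JMJD1B siRNA array and 581 on the control array for CCT5, and 36.8 with JMJD1A/JMJD1B siRNA and 77.7 with control siRNA for CCT8. Prefoldin, which hands actin and tubulin to CCT, showed no shared direction. PFDN5 was 2.30-fold higher (18760 with JMJD1A/JMJD1B siRNA and 8174 with control siRNA, with a second probe set at a log2 ratio of 1.39) and PFDN2 stood at 0.72, against -0.06 for PFDN4 and -0.57 for PFDN1.

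**Figure D3:**
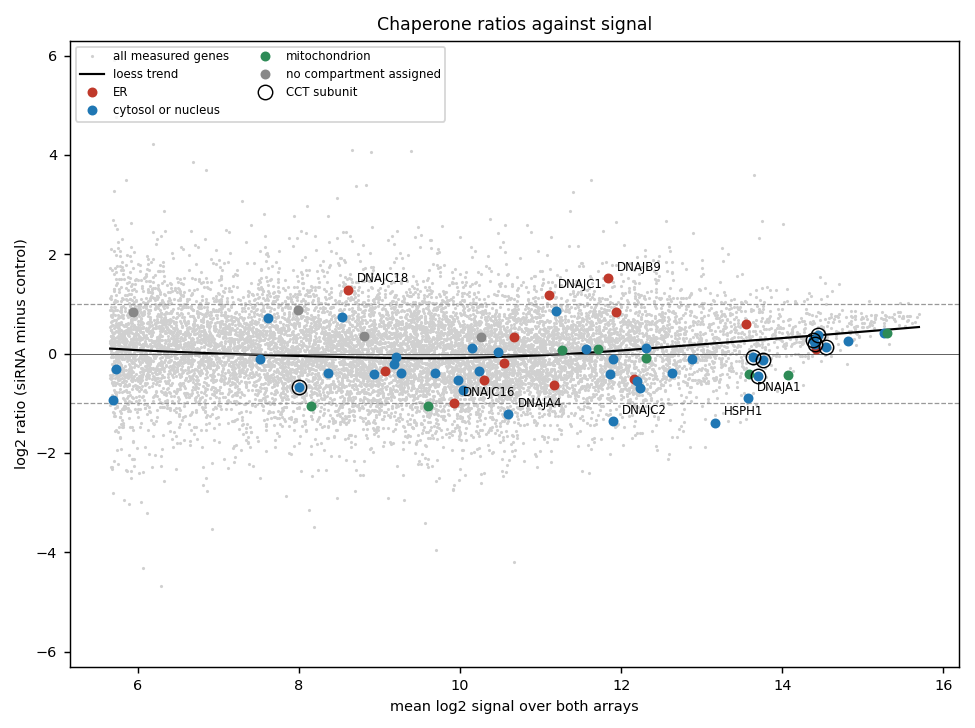
Log2 ratio of signal, JMJD1A/JMJD1B siRNA minus control siRNA (y axis), against the mean log2 signal over both arrays (x axis), for all 12561 measured genes (grey) and the chaperones (coloured by compartment, CCT subunits ringed). The black line is the loess trend, which climbs at high signal, and all ringed points lie on or below it.

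ER chaperones went both ways, with 7 of 13 above 0 and 6 below, and a median log2 ratio of 0.10 (-0.13 with the loess trend removed). Past 2-fold were 3 higher genes (23.1%, against 8.91% of all genes) and 1 lower one (7.69%, against 8.53%). DNAJB9, known as ERdj4, which directs misfolded ER proteins to degradation and restrains the sensor IRE1, read 6173 on the JMJD1A/JMJD1B siRNA array and 2152 on the control array. It was 2.87-fold higher, with its other probe sets at 0.80 and 1.23. DNAJC1, known as ERdj1 and bound to ribosomes at the ER membrane, read 3319 with JMJD1A/JMJD1B siRNA and 1465 with control siRNA, 2.27-fold higher, with probe sets at 0.99 and 1.64 besides. DNAJC18, an ER membrane J-protein, read 611 with JMJD1A/JMJD1B siRNA and 249.8 with control siRNA, 2.45-fold higher by its brightest probe set. Its dimmer probe sets did not share the difference, at 0.07 (113 with JMJD1A/JMJD1B siRNA and 108 with control siRNA) and -0.66 (45.2 with JMJD1A/JMJD1B siRNA and 71.2 with control siRNA), and the mean over its probe sets was 0.24. On the other side DNAJC16 read 688 with JMJD1A/JMJD1B siRNA and 1379 with control siRNA, 2.003-fold lower, with a second measured probe set at -1.13.

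The main luminal chaperones of the ER stayed under 2-fold. HSPA5, known as BiP, the HSP70 that binds nascent secretory proteins and holds the stress sensors inactive, read 22696 on the JMJD1A/JMJD1B siRNA array and 21178 on the control array (log2 ratio 0.10), with a dimmer probe set at -0.50. HSP90B1, known as GRP94, read 14691 with JMJD1A/JMJD1B siRNA and 9774 with control siRNA (0.59, with a second probe set at 0.12). HSPA13, a microsomal HSP70 without a client-binding domain, read 5222 with JMJD1A/JMJD1B siRNA and 2940 with control siRNA (0.83, second probe set 0.40). Other J-proteins that work with BiP in the lumen were lower or level. DNAJC3, known as P58IPK, read 1854 with JMJD1A/JMJD1B siRNA and 2862 with control siRNA (-0.63), and all 4 of its probe sets lay between -1.03 and -0.63. DNAJB11, known as ERdj3, read 3831 with JMJD1A/JMJD1B siRNA and 5456 with control siRNA (-0.51). DNAJC10, the disulfide reductase ERdj5, had its brightest probe set at -0.19 and others between -2.35 and 0.78. Of the membrane J-proteins, DNAJC14 stood at -0.52, DNAJB12 at -0.35 and DNAJB14 at 0.33.

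Other genes of ER folding and the unfolded protein response were also divided. Of 21 measured genes 3 (14.3%, against 8.91% of all genes) passed 2-fold upward and 1 (4.76%, against 8.53%) downward, and the median log2 ratio was 0.21. ERO1A, the oxidase that drives disulfide formation and a known hypoxia-responsive gene, was 4.45-fold higher (13057 with JMJD1A/JMJD1B siRNA and 2933 with control siRNA), and its paralog ERO1B 2.52-fold higher (682 with JMJD1A/JMJD1B siRNA and 271 with control siRNA). EDEM1, which directs misfolded glycoproteins to degradation and is the third by size, was 2.19-fold higher. HYOU1, the HSP110-type exchange factor of BiP, was 2.13-fold lower (1182 with JMJD1A/JMJD1B siRNA and 2516 with control siRNA), and CRELD2, an ER stress-induced protein, stood at -0.92. XBP1 read 1487 with JMJD1A/JMJD1B siRNA and 1285 with control siRNA (0.21) and ATF6 1069 with JMJD1A/JMJD1B siRNA and 689 with control siRNA (0.63, with probe sets between -0.16 and 0.77).

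Upstream stretches of 3 ER genes are shown because the ER stress element (CCAAT and CCACG with a spacer between, searched on both strands) is rare among promoters. It was found in 0.0769% of all promoters in the table and, among the measured members, in those of HSPA5 and HSP90B1. Capitals mark it there. In DNAJB9, which holds no such match in its window, capitals mark ACGTG on either strand, found in 21.4% of all promoters; matches on opposite strands overlap. The HSP90B1 stretch ends some way upstream of its start site and the other stretches end beside theirs.
HSPA5 (chr9:125241344-125241493, minus strand): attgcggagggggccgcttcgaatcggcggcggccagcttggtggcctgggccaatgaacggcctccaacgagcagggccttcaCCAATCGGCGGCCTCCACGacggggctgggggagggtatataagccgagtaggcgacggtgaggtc
HSP90B1 (chr12:103930200-103930349, plus strand): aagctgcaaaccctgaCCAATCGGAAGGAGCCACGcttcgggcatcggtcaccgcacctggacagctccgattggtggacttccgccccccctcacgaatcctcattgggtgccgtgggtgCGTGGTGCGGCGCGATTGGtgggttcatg
DNAJB9 (chr7:108569724-108569873, plus strand): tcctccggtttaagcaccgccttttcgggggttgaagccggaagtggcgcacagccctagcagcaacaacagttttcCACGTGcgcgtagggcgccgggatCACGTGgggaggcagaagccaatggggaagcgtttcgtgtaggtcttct
HSP90B1 holds the element in both orientations. The log2 ratios beside these sequences were 0.10 for HSPA5, 0.59 for HSP90B1 and 1.52 for DNAJB9. ACGTG occurred in 29.1% of the members' promoters, against 21.4% of all promoters. These belonged to 21 of the 58 genes, with a median log2 ratio of -0.19, against -0.11 for the 37 without. The longer GACGTG occurred in 12.7% of the members' promoters, against 7.81% of all promoters. These belonged to 8 of the 58 genes, with a median of -0.14, against -0.11 for the 50 without.

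Mitochondrial chaperones lay on both sides of 0, with 5 below and 3 above, and a median log2 ratio of -0.26 over 8 genes. Past 2-fold were 2 lower genes (25%, against 8.53% of all genes) and no higher one. DNAJC11, a protein of cristae organisation, read 538 on the JMJD1A/JMJD1B siRNA array and 1122 on the control array, 2.09-fold lower, with a second probe set at -0.99. DNAJC30, an inner membrane J-protein, read 197 with JMJD1A/JMJD1B siRNA and 410.1 with control siRNA, 2.08-fold lower, by its single measured probe set. HSPA9, known as mortalin, the matrix HSP70 that pulls proteins through the import channel, read 10658 with JMJD1A/JMJD1B siRNA and 14216 with control siRNA (-0.42), with 3 probe sets between -1.26 and -0.35. DNAJA3, its J-protein partner, stood at -0.10, and the import motor J-proteins DNAJC19 and DNAJC15 at 0.07 and 0.10. Each had a dimmer probe set below these, at -0.68 for DNAJC19 and -1.02 for DNAJC15.

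The matrix chaperonin and its lid stood on opposite sides of 0 on the deposited scale, but both below 0 with the loess trend removed, at -0.06 for HSPD1 and -0.75 for HSPE1. HSPD1, which encodes HSP60, read 46629 on the JMJD1A/JMJD1B siRNA array and 34773 on the control array (log2 ratio 0.42), while HSPE1, which encodes the lid HSP10, read 14826 with JMJD1A/JMJD1B siRNA and 19969 with control siRNA (-0.43). A second bright HSPD1 probe set was level at 21183 with JMJD1A/JMJD1B siRNA and 21342 with control siRNA (-0.01), and a dim one, at 247 with JMJD1A/JMJD1B siRNA and 595 with control siRNA, stood at -1.27, so the mean of the probe sets was -0.29. The start sites of HSPD1 and HSPE1 lie on opposite strands with 104 bases between them, at chromosome 2 in GRCh38.p14. These bases are shown because they lie upstream of both genes; capitals mark overlapping matches to ACGTG on both strands.
HSPD1 and HSPE1 (chr2:197500275-197500378, plus strand): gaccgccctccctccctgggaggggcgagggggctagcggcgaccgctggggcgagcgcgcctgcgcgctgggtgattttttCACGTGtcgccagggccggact
Other mitochondrial chaperones and proteases were mostly below 0, in 11 of 13 measured genes (84.6%, against 47.9% of all genes), with a median log2 ratio of -0.23. AFG3L2, a protease of the inner membrane, was 2.18-fold lower (4769 with JMJD1A/JMJD1B siRNA and 10385 with control siRNA, probe sets at -1.18 and -1.12), and TIMM44, which tethers mortalin to the import channel, stood at -0.65. HSCB, a J-protein of iron-sulfur cluster assembly, stood at 0.61 and TRAP1, the mitochondrial HSP90, at 0.09.

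Set side by side, the median log2 ratio was 0.10 over 13 ER genes, -0.21 over 39 genes of the cytosol and nucleus and -0.26 over 8 mitochondrial genes. The J-proteins given no compartment, with a median of 0.60, are in none of these medians. Counting them as mitochondrial would put that median above that of the cytosol and nucleus, so the lower end of this order depends on the assignment. The ER median was above that of the cytosol and nucleus by 0.31, which with 1 array a group could not be tested. The gap was 0.16 with the loess trend removed and 0.19 by the mean of probe sets. Within the ER the median was -0.05 over 6 luminal genes (HSPA5, HSP90B1, DNAJB9, DNAJB11, DNAJC3 and DNAJC10) and 0.33 over the other 7. HSPA13, at 0.83, was counted with the other 7. Counting it as luminal would reverse the order of these medians, so the split is not robust. Without the CCT genes, that of the cytosol and nucleus was -0.36 over 31 genes. The ER median was the highest of the 3 compartments under the deposited processing and all 10 alternatives, but it was above 0 in 6 of these 11. Median scaling and hybridization control scaling shift all members alike and cannot change this order. The changes of filter left the ER and mitochondrial medians as they were, so the number of alternatives is no measure of robustness. Among J-proteins alone the medians were -0.27 in the ER (10 genes), -0.35 in the cytosol and nucleus (20 genes) and -0.10 in mitochondria (5 genes), so the ER did not stand highest there.

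**Figure D4:**
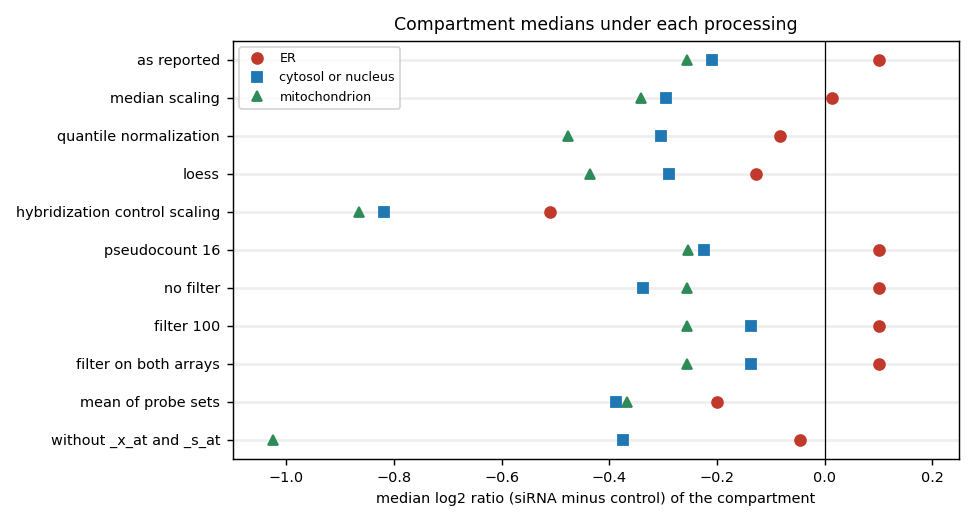
Median log2 ratio (JMJD1A/JMJD1B siRNA minus control siRNA, x axis) of the measured ER, cytosolic or nuclear, and mitochondrial chaperones under the reported processing and 10 alternatives (rows). The ER median is the rightmost symbol in each row, an order that median and hybridization control scaling cannot change. All 3 medians lie to the left when the arrays are set level on the hybridization controls, where the ER median is -0.51.

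The J-proteins DNAJC4, DNAJC22, DNAJC27 and DNAJC28 were not assigned to a compartment. All 4 stood above 0 on the deposited scale, though DNAJC4 and DNAJC22 would be below it on the hybridization control scale. They lay between 0.34 for DNAJC22 and 0.88 for DNAJC27, which read 345 on the JMJD1A/JMJD1B siRNA array and 187 on the control array. DNAJC28 read 82.3 with JMJD1A/JMJD1B siRNA and 45.9 with control siRNA and was at least 1.63-fold higher against the filter. Not measured were DNAJB7, DNAJB8, DNAJB13, DNAJC5B, HSPA1L, HSPA6, HSPB2, HSPB3, HSPB6, HSPB7 and HSPB9, several of them known from testis or muscle. HSPA12B, DNAJC5G and DNAJC28 passed the filter with a signal under it on 1 array.

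Agreement between probe sets was limited. Of 43 measured members with more than 1 measured probe set, 19 had probe sets on both sides of 0. The share over all such genes was not computed, so this is not shown to be particular to the members. Among the 9 genes past 2-fold, 7 had more than 1, and in 5 of these all had the same sign (DNAJB9, DNAJC1, HSPH1, DNAJC16 and DNAJC11). The brightest probe set gave a higher ratio than the second brightest in 34 of the 43 (79.1%), by a median of 0.40, against 53.6% and a median of 0.05 for the 6192 such genes on the whole array.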

How the data were processed

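RNA from 2 cultures was measured on 1 single-channel oligonucleotide array each, and biotin labelling began from 0.5 ug of total RNA, per the labels' protocols. The authors deposited 1 linear signal intensity per probe set and array, and the submitters' processing notes name MAS5. Its version and settings are not given in the sources used here. Without the top and bottom 2% of the 54675 probe sets, the mean signal was 500.1 on either array, as a single scaling factor per array would give. The number of arrays limits the precision.

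Gene names came from the platform annotation, in which 41091 non-control probe sets carried 1 symbol, 1801 several and 11721 none, and genes were named from the first kind alone. Of these, 41037 had a gene identifier in the RefSeq table (GRCh38.p14), and no symbol changed. Log2 ratios used no pseudocount, loess was fitted with statsmodels 0.14.6, and the calculation was tested on simulated data in Python 3.11.15. Lower bounds ("at least") raise the dimmer signal to the filter and allow for no error in the brighter one. Compartments and gene lists came from general knowledge. Members and lists were chosen with earlier results of these data known. Named genes were the members past 2-fold, the core chaperones and CCT subunits, the extremes of each compartment and up to 2 genes in each direction of the other lists. Further genes were named after their values were seen. They are BAG1, EDEM1, XBP1 and ATF6, and the members DNAJA2, DNAJB2, DNAJB5, DNAJB6, DNAJB11, DNAJB12, DNAJB14, DNAJC3, DNAJC7, DNAJC9, DNAJC10, DNAJC14, DNAJC15, DNAJC19, DNAJC24, DNAJA3, HSPA2, HSPA4L, HSPA12B, HSPA13, HSPA14, HSPB8 and those given no compartment. Alternatives were 4 other scalings, a pseudocount of 16, 3 changes of filter, 2 further ways to choose probe sets, and thresholds of 1.5-fold and 3-fold. A planned comparison of protein sequence motifs was not run.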

Additional observations from a re-analysis of the deposited data

Results flagged for a closer look

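Probe sets whose annotation lists several genes were left out of the comparison. Of 13 such probe sets that include a chaperone symbol, 12 lay above the filter. Of all measured genes, by probe sets that list 1 gene, 8.53% passed 2-fold downward and 8.91% upward. No share was computed over all probe sets that list several genes. Of the 12, 2 passed 2-fold downward and none upward. Those 2 were bright and stood at -2.47 (2099 on the JMJD1A/JMJD1B siRNA array and 11653 on the control array) and -1.76 (3919 with JMJD1A/JMJD1B siRNA and 13270.2 with control siRNA) on the log2 scale, each larger than any ratio among the measured members by the brightest probe set. The other 10 lay between -0.42 and 1.00. Which of the listed genes each signal came from was not tested.

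The hybridization controls, which belong to no gene of the cells, read more on the JMJD1A/JMJD1B siRNA array, with a median log2 ratio of 0.61 and a range of 0.40 to 0.71 over 18 probe sets for a few spiked transcripts. The part of this difference in the chaperone ratios was not tested.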

How the results depend on the processing

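With the arrays set level on the hybridization controls, 0 members passed 2-fold upward, against 2.15% of all genes, and 23 (35.9%) downward, against 27.7%. The median log2 ratio was -0.72 over all members, -0.82 in the cytosol and nucleus, -0.51 in the ER, -0.87 in mitochondria and -0.49 over the CCT subunits. This shift follows from the scaling itself. Without the probe sets marked _x_at or _s_at, 52 members were left, of which 1 (1.92%) passed 2-fold upward, against 9.07% of all genes, and 9 (17.3%) downward, against 10.6%. There DNAJC18 was the higher gene left, and DNAJB9 stood at 0.80 and DNAJC1 at 0.99. DNAJC2 and DNAJC11 left the lower genes, and HSPA4, HSPA9, HSPD1, CCT8 and DNAJA1 joined them by dimmer probe sets. The mitochondrial median there was -1.03 over 6 genes. With no filter 12 of 75 members were lower by 2-fold or more (12.7% of all genes) and 4 higher (16.1%). At a threshold of 1.5-fold 10 members were higher (21.7% of all genes) and 12 lower (19.5%), and at 3-fold 0 were higher and 0 lower (2.28% and 2.26% of all genes). The other alternatives left 2 or 3 members higher (3 under the deposited processing) and 5 to 7 lower (6). Of all genes, 7.28% to 9.21% were higher and 7.68% to 10.2% lower under them. Under these remaining alternatives DNAJB9 and DNAJC1 were at least 2-fold higher, while DNAJC18 was under 2-fold by the mean of probe sets, and DNAJC16 was under 2-fold after quantile normalization, after loess and with the pseudocount. DNAJC11 was under 2-fold after quantile normalization and after loess, and DNAJC30 after quantile normalization. Across 284 values of 29 named members, none that had been at least 2-fold changed sign, and 45 moved by more than the SD between probe sets, 29 of them on the hybridization control scale. No paired analysis was possible because each group had 1 array.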
